A study of Homo sapiens with 4 samples.

Results

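The genes of the RNA polymerase I machinery were followed in human HEK293 cells with and without THUMPD1. The 10 genes are the subunits particular to RNA polymerase I or shared only with RNA polymerase III (POLR1A, POLR1B, POLR1C, POLR1D, POLR1E, CD3EAP, TWISTNB and ZNRD1) and the initiation factors UBTF and RRN3, and all 10 were found by symbol among the 18917 genes of the count table. The libraries were 2 of WT and 2 of KO cells, made from total RNA after removal of ribosomal RNA, and both genotypes grew in the same medium (DMEM with 10FBS and 2 mM Gln). The labels name the line HEK293 and give the cell type as embryonic kidney, and the study's methods describe THUMPD1 KO HEK-293T cells made with CRISPR-Cas9 and isolated by sorting of single cells, so that genotype and clonal origin cannot be told apart. THUMPD1 is an adapter of the acetyltransferase NAT10, which places N4-acetylcytidine on leucine and serine tRNAs.

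RNA polymerase I makes a single product, the precursor of the large ribosomal RNAs, and makes it in the nucleolus. The promoter is held open by UBTF and marked by the selectivity factor SL1, and the polymerase becomes able to start when RRN3 binds its stalk. Its output is a large share of all transcription in growing cells and responds to growth factors, nutrients and stress. The measurements here are of the mRNAs that encode this machinery, not of its proteins or of ribosomal RNA.

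In KO cells 7 of the 10 mRNAs were lower, 1 was higher and 2 did not pass the test. Those that fell were UBTF, RRN3, the catalytic subunits POLR1A and POLR1B, the assembly subunit POLR1C, the stalk subunit TWISTNB and CD3EAP, with KO levels from 43.8% of WT for CD3EAP to 81.0% for POLR1B. POLR1D, the assembly partner of POLR1C, rose to 126% of WT. POLR1E and ZNRD1 differed by less than their errors. All 10 passed the filter on low counts (at least 1 CPM, or counts per 1e+06 counts of the library, in 2 or more libraries), as did 13128 genes in all, and a call here is a Benjamini-Hochberg adjusted p under 0.05 over those 13128 genes by edgeR's quasi-likelihood test. Of all genes tested, 12.1% were called lower and 8.79% higher, against 7 and 1 of the 10. The median log2 fold change was -0.42 over the 10 genes and 0.01 over all genes tested.

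Library totals ran from 7875722 to 11362363 counts, and CPM were taken on library sizes scaled by the trimmed mean of M values (TMM). THUMPD1 itself stood at 46.4 and 42.6 CPM in the WT libraries and at 6.13 and 5.45 CPM in the KO libraries, a log2 fold change of -2.93 (SE 0.17, adjusted p = 1.27e-12), so the labels and the targeted gene go together. Of 7 embryonic kidney and epithelial markers, 6 had at least 42 counts in every library, and LHX1 had from 6 to 37. LHX1 was higher in KO cells and KRT18 lower, and the 7 markers summed to 150 and 162 CPM in WT and to 134 and 147 CPM in KO cells. Of 8 markers of blood, endothelium and fibroblasts, HBB was at 0 in all libraries, PTPRC, CD3E, PECAM1, CDH5 and DCN had at most 6 counts, and COL1A1 and COL3A1 were detected. Those 8 summed to 30.5 and 26.2 CPM in WT and to 29.4 and 24.98 CPM in KO cells, and their part in the results below was not tested. Nothing in the labels says that libraries of a genotype came from separate cultures, so the p-values measure the spread between these libraries, which may be technical.

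Stretches of the promoters are shown for the genes whose mRNAs moved farthest down and up, CD3EAP and POLR1D, and for TWISTNB, whose fall was called in every setting tried. Each stretch is the 120 bases before an annotated start (for POLR1D the upstream one of its 2), from RefSeq on GRCh38.p14, written 5′ to 3′ on the strand of the gene. Capitals mark matches, on either strand, to CACGTG (an E-box, the element that MYC and related factors bind), CCGGAA (the core read by ETS factors), GGGCGG (a GC box) or CCAAT.
CD3EAP, chr19:45406524-45406643, plus strand: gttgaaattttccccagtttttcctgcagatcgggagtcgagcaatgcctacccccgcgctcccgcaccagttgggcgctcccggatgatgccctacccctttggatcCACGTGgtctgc
POLR1D, chr13:27620623-27620742, plus strand: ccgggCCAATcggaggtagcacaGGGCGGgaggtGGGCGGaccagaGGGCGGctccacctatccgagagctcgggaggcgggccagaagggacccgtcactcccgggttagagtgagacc
TWISTNB, chr7:19709038-19709157, minus strand: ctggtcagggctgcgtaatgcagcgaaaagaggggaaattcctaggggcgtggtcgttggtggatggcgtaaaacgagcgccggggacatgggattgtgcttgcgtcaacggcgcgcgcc

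The E-box of CD3EAP lies just before the start, the POLR1D stretch shown holds 3 GC boxes and a CCAAT box (the same length before its other start holds 2 GC boxes and no CCAAT box), and the TWISTNB stretch holds none of these letters. RefSeq promoters matched 9 of the 10 genes, POLR1E being the one without an entry. A gene was counted if any of its annotated starts had the letters, while the percentages are per single promoter. Genes with 2 starts therefore had more room for a match. Within 250 bases before the start, the E-box letters were found in 1 of the 9 genes (CD3EAP) and in 6.3% of 35116 promoters. The ETS core was found in 3 (POLR1B, POLR1C and RRN3) and in 14.5% of promoters. The GC box was found in 4 (POLR1B, POLR1C, POLR1D and UBTF) and in 42.6%, and CCAAT in 3 (POLR1D, RRN3 and ZNRD1) and in 32.0%. RRN3 had the ETS core and CCAAT, and POLR1D had CCAAT, before only 1 of 2 starts. No letters searched were common to the promoters of the 7 genes that fell. These matches describe the letters in the window only.

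The catalytic core was lower in both KO libraries. POLR1A, which encodes the largest subunit and forms the active site together with POLR1B (34 exons on chromosome 2, 86020216 to 86106155, GRCh38, minus strand), was at 139 and 142 CPM in WT and at 110 and 111 CPM in KO cells. The genotypes did not overlap, and libraries of a genotype were close to each other. The log2 fold change was -0.34 (SE 0.07, 95% interval -0.49 to -0.20, adjusted p = 0.00112). POLR1B, the second-largest subunit (chromosome 2, 112541915 to 112579818, plus strand), was at 84.5 and 74.3 CPM in WT and at 65.0 and 63.5 CPM in KO cells. The WT libraries were farther from each other here than the KO libraries were. Its log2 fold change was -0.30 (SE 0.09, adjusted p = 0.0214), the weakest call among the genes that fell. The POLR1B call was lost with DESeq2 (adjusted p = 0.0767), with limma-voom on quantile-normalized values (0.0549) and with library size as the only scaling (0.0930), and when WT 1, KO 1 or KO 2 was left out (0.201, 0.0580 and 0.0782).

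**Figure D1:**
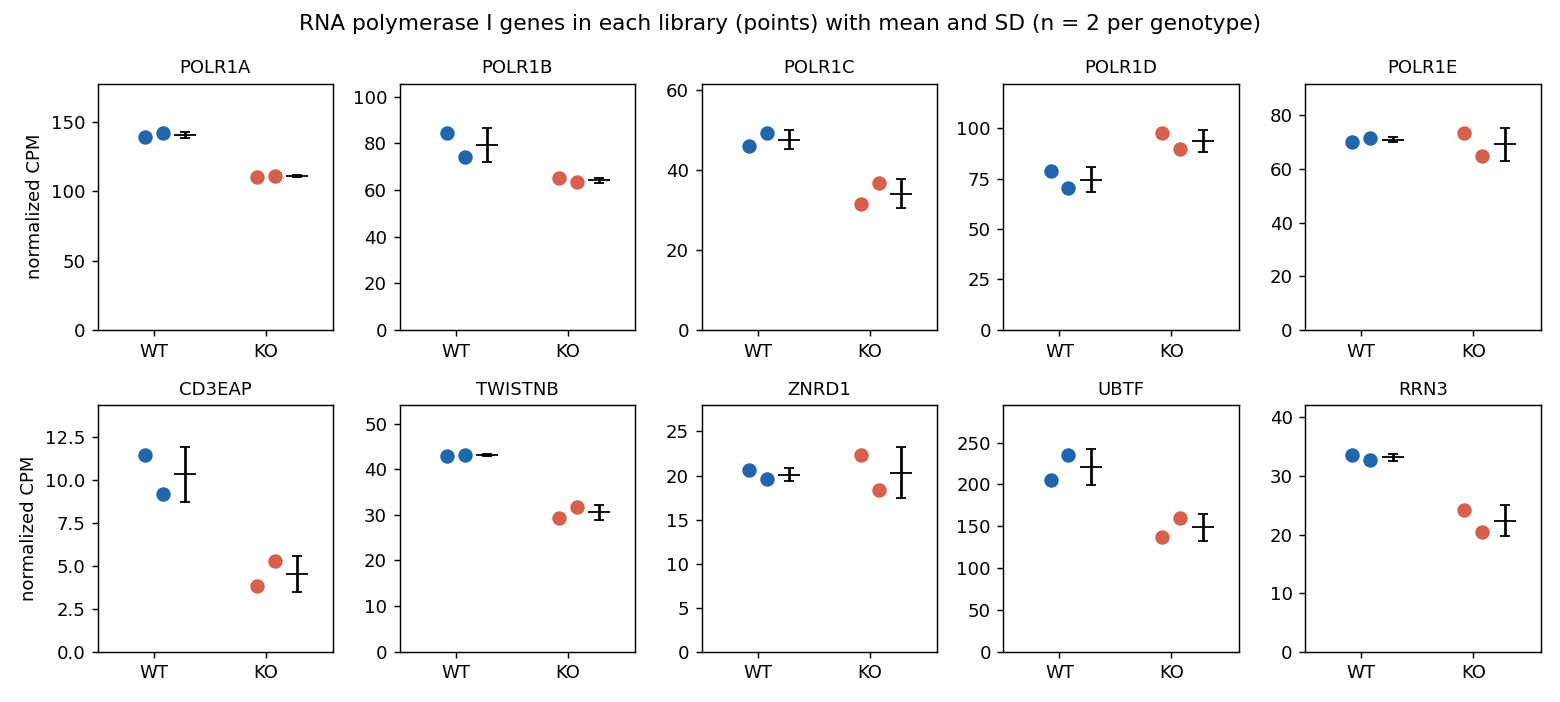
Normalized CPM (vertical axis, linear, from 0) of the 10 genes in the 2 WT libraries (blue) and 2 KO libraries (red), with the mean and SD in black (n = 2 per genotype). In 7 panels both KO points lie below both WT points, for POLR1D they lie above, and for POLR1E and ZNRD1 the genotypes overlap.

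The assembly pair moved in opposite directions. POLR1C and POLR1D form the heterodimer on which RNA polymerases I and III are both assembled, and the genes are known for their part in Treacher Collins syndrome. POLR1C (chromosome 6, 43509702 to 43562419, plus strand) was at 45.9 and 49.2 CPM in WT and at 31.5 and 36.6 CPM in KO cells, with a log2 fold change of -0.49 (SE 0.12, adjusted p = 0.00412). POLR1D (chromosome 13, 27620742 to 27744237, plus strand) was at 78.9 and 70.2 CPM in WT and at 97.7 and 89.7 CPM in KO cells, with a log2 fold change of 0.33 (SE 0.09, adjusted p = 0.00733). Neither gene's genotypes overlapped, and POLR1D was the only one of the 10 to rise. The POLR1D count was 1.72 and 1.43 times the POLR1C count in the WT libraries and 3.10 and 2.45 times in the KO libraries. The ratio was thus higher in both KO libraries, as the opposite moves of the genes require. The two-sided exact permutation test of it gave p = 0.333, the smallest that 2 against 2 libraries allow. That test adds nothing to the fold changes above. Leaving out KO 1 ended the calls of both genes (adjusted p = 0.0744 for POLR1C and 0.0943 for POLR1D), as did leaving out WT 2 for POLR1D (0.102). The span of the POLR1C gene, introns included, overlaps LRRC73, YIPF3 and XPO5 on the opposite strand. The search for copies described below for RRN3 listed no match of the POLR1C transcript to these genes. Shared stretches shorter than its cutoff would not be listed, and whether counting used strand is not given in the sources used here.

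CD3EAP had the largest fall of the 10, and its dimer partner did not fall with it. CD3EAP (PAF49, now POLR1G) and POLR1E (PAF53) form a heterodimer on the polymerase that takes part in initiation and elongation. CD3EAP (3 exons on chromosome 19, 45406644 to 45410737, plus strand) gave counts of 88 and 101 in the WT libraries and of 44 and 56 in the KO libraries, or 11.5 and 9.19 against 3.80 and 5.26 CPM. It was the least counted of the 10 in every library, and the KO level was 43.8% of WT. The log2 fold change was -1.18 (SE 0.28, 95% interval -1.77 to -0.60, adjusted p = 0.00369), and without KO 1 it was -0.96 with an adjusted p of 0.0596. POLR1E (chromosome 9, 37485948 to 37503697, plus strand) was at 70.3 and 71.7 CPM in WT and at 73.5 and 64.9 CPM in KO cells. Its genotypes overlapped, and the log2 fold change of -0.04 had a 95% interval of -0.23 to 0.15 (adjusted p = 0.819). The POLR1E count was 6.12 and 7.80 times that of CD3EAP in WT and 19.3 and 12.3 times in KO libraries (two-sided exact permutation p = 0.333, again the smallest possible). For the other pairs compared in this way the genotypes overlapped. The POLR1A count was 1.65 and 1.91 times that of POLR1B in WT and 1.70 and 1.75 times in KO libraries. The UBTF count was 6.12 and 7.19 times that of RRN3 in WT and 5.66 and 7.82 times in KO libraries.

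The CD3EAP gene lies across the repair gene ERCC1, which is read from the opposite strand, and 1594 of the 2822 bases of the CD3EAP transcript (56.5%) are also exonic in an ERCC1 transcript. ERCC1 was at 47.6 and 54.0 CPM in WT and at 45.5 and 50.4 CPM in KO cells (log2 fold change -0.09, adjusted p = 0.612). The genotypes overlapped for ERCC1 and did not for CD3EAP. PPP1R13L, a neighbouring gene, was lower in KO cells (-0.72, adjusted p = 0.00163). Without a stated use of strand, reads of CD3EAP and of ERCC1 over the shared bases cannot be told apart, and the CD3EAP value is uncertain for that reason.

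Of the stalk and the cleavage subunit, one fell and the other did not change beyond its error. TWISTNB (RPA43, now POLR1F, on chromosome 7, 19695461 to 19709037, minus strand) is the stalk subunit that RRN3 contacts. It was at 42.9 and 43.2 CPM in WT and at 29.4 and 31.7 CPM in KO cells, with a log2 fold change of -0.50 (SE 0.12, adjusted p = 0.00394). The fall was called in all 9 alternative settings and without each library in turn, as were those of POLR1A and UBTF. ZNRD1 (RPA12, now POLR1H, on chromosome 6, 30058899 to 30064909, plus strand), which helps the polymerase to cleave back-tracked RNA, was at 20.6 and 19.6 CPM in WT and at 22.4 and 18.3 CPM in KO cells. Its log2 fold change of 0.02 had a 95% interval of -0.31 to 0.35 (adjusted p = 0.939), and the value for POLR1A lies just below that interval. An antisense gene, POLR1HASP, shares 376 of the 851 bases of its transcript.

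Both initiation factors fell, by nearly the same factor. UBTF, an HMG-box protein that coats active ribosomal DNA (21 exons on chromosome 17, 44205033 to 44221626, minus strand), was at 206 and 236 CPM in WT and at 137 and 160 CPM in KO cells. It was the most highly counted of the 10 in every library, the genotypes did not overlap, and the KO level was 67.4% of WT. The log2 fold change was -0.57 (SE 0.08, 95% interval -0.73 to -0.41, adjusted p = 6.2e-06). RRN3 (TIF-IA, 18 exons on chromosome 16, 15060033 to 15094311, minus strand), the factor through which growth and stress signals reach the polymerase, was at 33.6 and 32.8 CPM in WT and at 24.3 and 20.5 CPM in KO cells. Its log2 fold change was -0.57 (SE 0.14, adjusted p = 0.00451), and without KO 2 it was -0.45 with an adjusted p of 0.0603.

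**Figure D2:**
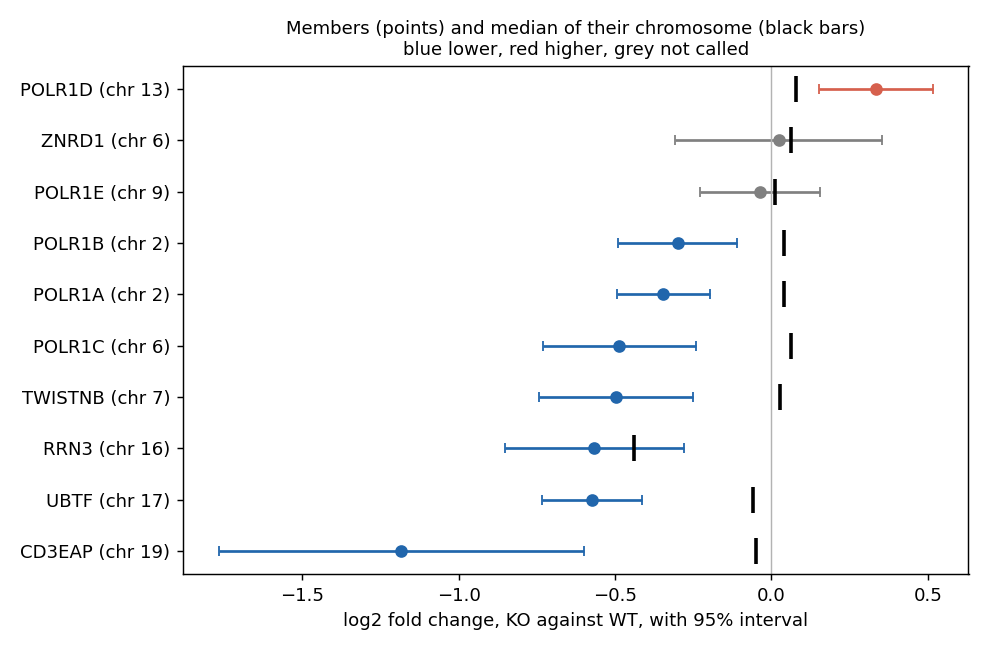
Log2 fold change of KO against WT (horizontal axis) with its 95% interval for each of the 10 genes, blue where called lower, red where called higher and grey where not called. The black bars give the median of all other tested genes on the same chromosome. RRN3 is the one gene whose chromosome median, -0.44, lies far from 0.

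RRN3 stood close to the rest of its chromosome. Over the 572 other tested genes of chromosome 16 the median was -0.44 on the log2 scale, over the genes of chromosome 22 it was -0.42, and on the remaining chromosomes it lay between -0.06 and 0.10. RRN3 differed from the median of chromosome 16 by -0.13, less than its SE of 0.14, and 186 of the 572 genes (32.5%) were lower than it. Its 20 nearest tested genes had a median of -0.45, and 5 of them were lower than RRN3. The other genes that fell differed from the median of their own chromosomes by -0.34 (POLR1B) to -1.13 (CD3EAP). Their 20 nearest tested genes had medians of -0.14 (UBTF), -0.13 (POLR1C and CD3EAP), 0.02 (POLR1A and TWISTNB) and 0.13 (POLR1B). For each of these genes 0 to 2 of the 20 were lower than it. THUMPD1 is also on chromosome 16. The part of chromosome 16 as a whole in the RRN3 value was not tested.

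**Figure D3:**
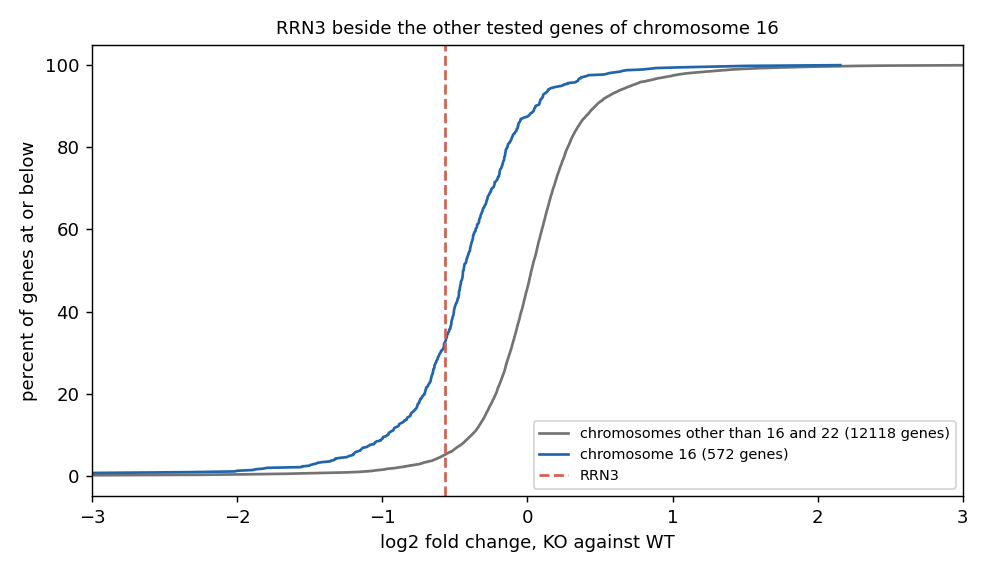
Percent of genes (vertical axis) at or below each log2 fold change of KO against WT (horizontal axis) for the tested genes of chromosome 16 other than RRN3 (blue) and of all chromosomes but 16 and 22 (grey). The dashed red line is RRN3 at -0.57, which meets the blue curve where 32.5% of genes lie below it.

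RRN3 also has partial copies on the same chromosome, and 1569 of the 3706 bases of its transcript (42.3%) match an annotated transcript of another gene over at least 100 bases at 95% identity or more. The longest match, 870 bases with 98.6% identity, is to a transcribed pseudogene (ENSG00000284671, chromosome 16, 29075022 to 29104162), and its longest run without a difference is 215 bases. The part of that match with the most differences is shown to let the likeness be seen, from base 80 to base 159 of the RRN3 transcript, within the coding sequence, with differing bases in capitals.
RRN3: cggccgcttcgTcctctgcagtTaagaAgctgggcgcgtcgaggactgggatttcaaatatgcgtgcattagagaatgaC
pseudogene: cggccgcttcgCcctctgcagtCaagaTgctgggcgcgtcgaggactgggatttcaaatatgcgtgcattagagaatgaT

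Even in this stretch 4 of 80 bases differ. The pseudogenes RRN3P1, RRN3P2 and RRN3P3 have no entry in the count table used here. CDR2, a protein-coding gene that has one, matches 579 bases of the RRN3 transcript, with 98.45% identity in its longest match. How reads that fit both were assigned cannot be read from the counts, and the RRN3 count is uncertain over these bases. The span of the RRN3 gene, introns included, also overlaps that of PDXDC1, a counted gene on the opposite strand, over 34279 bases. The search for copies described above listed no match of the RRN3 transcript to a PDXDC1 transcript. Shared stretches shorter than its cutoff would not be listed, and the use of strand is not stated.

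Counted without a test, both KO libraries lay below both WT libraries for 7 of the 10 genes and above them for 1, beside 30.0% and 30.4% of all genes tested. Leaving out one library at a time left 4 to 7 genes called lower and 0 or 1 called higher, with the fewest without KO 1, where POLR1A, TWISTNB, UBTF and RRN3 were called. DESeq2, limma-voom and library size alone each called 6 of the 10 lower, beside 8.52%, 10.3% and 8.82% of all genes. Of all calls, 58.0% were lower in KO with TMM and 35.8% with library size alone.

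**Figure D4:**
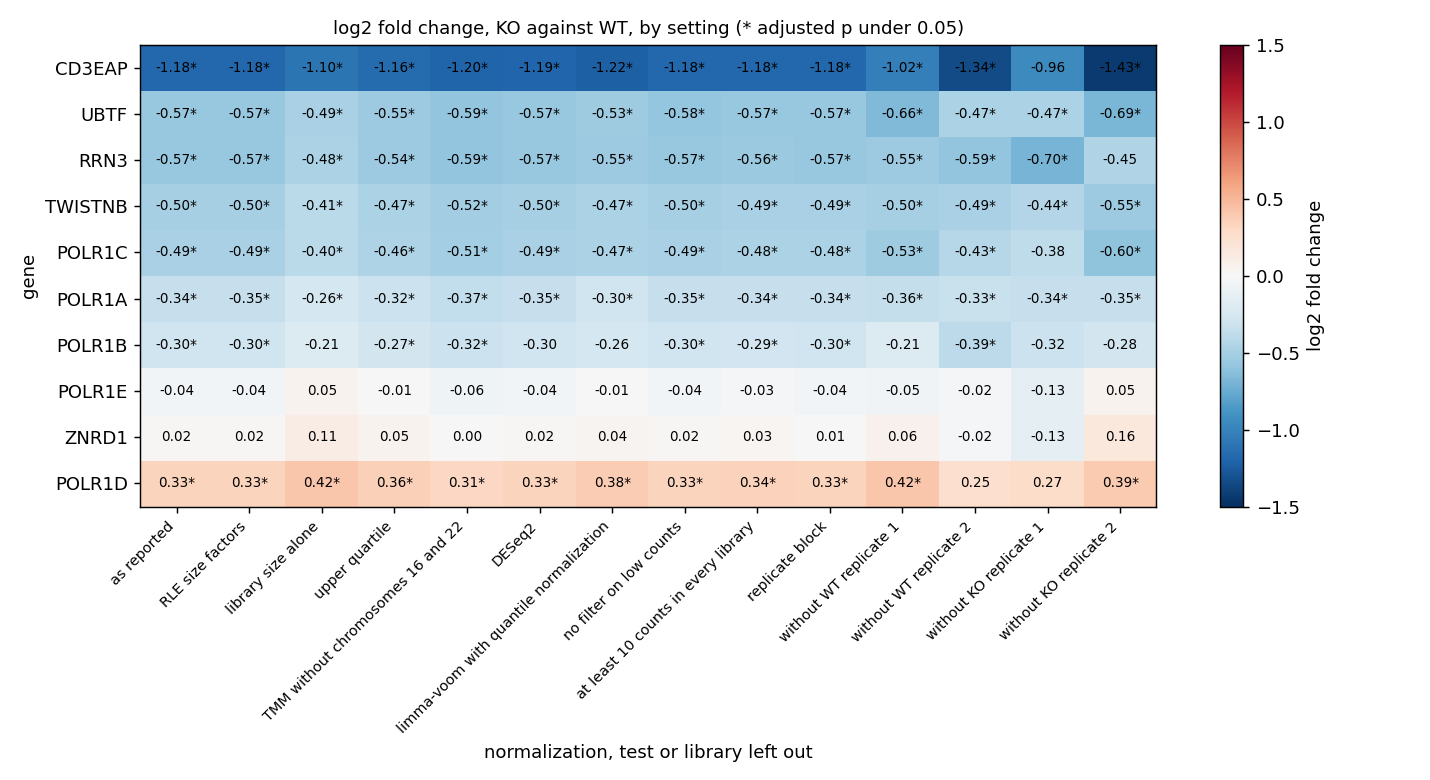
Log2 fold change of KO against WT (numbers and colours) of the 10 genes (vertical axis) as reported, under 9 other normalizations, filters or tests, and with each library left out (horizontal axis). An asterisk marks an adjusted p under 0.05. POLR1A, TWISTNB and UBTF carry it in every column, and POLR1E and ZNRD1 in none.

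Levels were compared between the genes as CPM per kilobase of the longest annotated transcript. In WT libraries UBTF was highest (44.2 ± 4.2, SD, n = 2), followed by POLR1E (31.9 ± 0.45), POLR1C (19.5 ± 0.96) and POLR1D (16.2 ± 1.3). POLR1A (11.3 ± 0.16), TWISTNB (11.1 ± 0.06) and POLR1B (10.5 ± 0.96) came next and did not differ from one another beyond the spread of POLR1B. RRN3 (8.96 ± 0.17), ZNRD1 (5.47 ± 0.20) and CD3EAP (3.66 ± 0.57) were lowest. In KO libraries POLR1E (31.0 ± 2.7) and UBTF (29.8 ± 3.2) no longer differed beyond their spread, and POLR1D (20.4 ± 1.2) stood above POLR1C (13.9 ± 1.5). The order depended on the length used, since the standard (MANE Select) POLR1D transcript has 693 bases and the longest has 4592. Per kilobase of the standard transcript POLR1D was highest in WT libraries (108 ± 8.8) and ZNRD1, at 23.6 ± 0.87, lay above POLR1A.

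The coding sequences of the 10 genes differ widely in leucine codons, which the tRNAs acetylated with the help of THUMPD1 read. The codons TTA, TTG, CTT and CTA, taken from the study's own codon analysis, made up 43.3% of leucine codons in the median of the 10, beside a median of 40.8% and quartiles of 22.7% and 61.3% in 12957 tested genes. Among the genes that fell, TWISTNB had 19 of 26 leucine codons of this kind and UBTF had 9 of 61. POLR1D, which rose, had 7 of 11, and ZNRD1 had none among 5.

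The subunits that RNA polymerase I shares with II and III did not move as one. Of these 5, POLR2F (-0.49, adjusted p = 3.05e-05) and POLR2L (-0.30, adjusted p = 0.00562) fell, and POLR2H rose (0.50, adjusted p = 0.0150). Among all genes tested, 12.1% were called lower and 8.79% higher. POLR2E and POLR2K were at -0.02 and -0.01 and were not called. POLR2F lies on chromosome 22, whose other tested genes had a median of -0.41.

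SL1, which brings RNA polymerase I to the promoter, gave no call among its 5 genes. With 12.1% of all genes tested called lower and 8.79% higher, a list this short says little by its count. The values ran from -0.38 for TAF1C (adjusted p = 0.125), on chromosome 16, to 0.28 for TAF1B (adjusted p = 0.111), with a median of 0.06. Of the 2 genes of termination and release, PTRF, which releases the transcript and is also the caveolar coat protein CAVIN1, was at 14.6 and 18.7 CPM in WT and at 8.55 and 8.45 CPM in KO cells. PTRF fell by 0.98 on the log2 scale (adjusted p = 0.00119). TTF1, the factor bound at the end of the ribosomal DNA unit, was at 0.12 (adjusted p = 0.605).

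Of 15 regulators of ribosomal DNA transcription and chromatin, 9 fell and 1 rose, beside 12.1% and 8.79% of all genes tested. Their median was -0.20. The nucleolar proteins NOLC1 (-0.46, adjusted p = 8.54e-06), MYBBP1A (-0.46), NCL (-0.38) and DDX21 (-0.38) and TCOF1 (treacle, -0.23), which works with UBTF at ribosomal DNA, were among those that fell. MYC, an activator of ribosome production, fell from 193 and 210 CPM in WT to 176 and 177 CPM in KO cells (-0.20, adjusted p = 0.0350). SIRT7 had the lowest value (-0.65, adjusted p = 0.0107) and is a deacetylase known to act on RNA polymerase I. PHF8 (-0.28), a histone demethylase active at ribosomal DNA, and BAZ2A (-0.18), a part of the complex that silences it, fell as well. SMARCA5, the ATPase that works with BAZ2A, rose (0.24, adjusted p = 0.0104). BAZ2A (adjusted p = 0.0388) and SMARCA5, partners in 1 complex, thus moved in opposite directions. Across the alternatives with all libraries, 7 (library size alone) to 11 (replicate number as a block) of the regulators were called. DESeq2 called 8. Without KO 1, 4 of the 15 were called.

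Beside these, the other polymerases gave the following counts, where 12.1% of all genes tested were called lower and 8.79% higher. Of 10 listed subunits specific to RNA polymerase III, 8 were tested, 4 fell and 1 rose, with a median of -0.26. The falls were those of POLR3K (-0.92, adjusted p = 2.02e-05), POLR3G (-0.60), POLR3E (-0.51) and the catalytic POLR3A (-0.26, adjusted p = 0.0324), and POLR3F rose (0.57, adjusted p = 0.0199). POLR3K and POLR3E lie on chromosome 16, and POLR3C and POLR3GL were listed at 0 in all libraries. The number called was 3 without WT 1 or without KO 1 and 2 without KO 2. Of 7 subunits specific to RNA polymerase II, 1 fell (14.3%, near the share over all genes) and none rose, with a median of -0.06. That gene was POLR2A, the largest subunit, at 604 and 606 CPM in WT and at 353 and 367 CPM in KO cells (-0.75, adjusted p = 1.06e-09), and the highest value was that of POLR2J (0.17, adjusted p = 0.134). The largest subunits of all 3 polymerases were thus lower in KO cells. The second-largest subunits stood at -0.30 (POLR1B, with the weak call above), -0.02 (POLR2B, adjusted p = 0.899) and -0.26 (POLR3B, adjusted p = 0.107), and the differences between them were not tested. No test was made between lists.

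**Figure D5:**
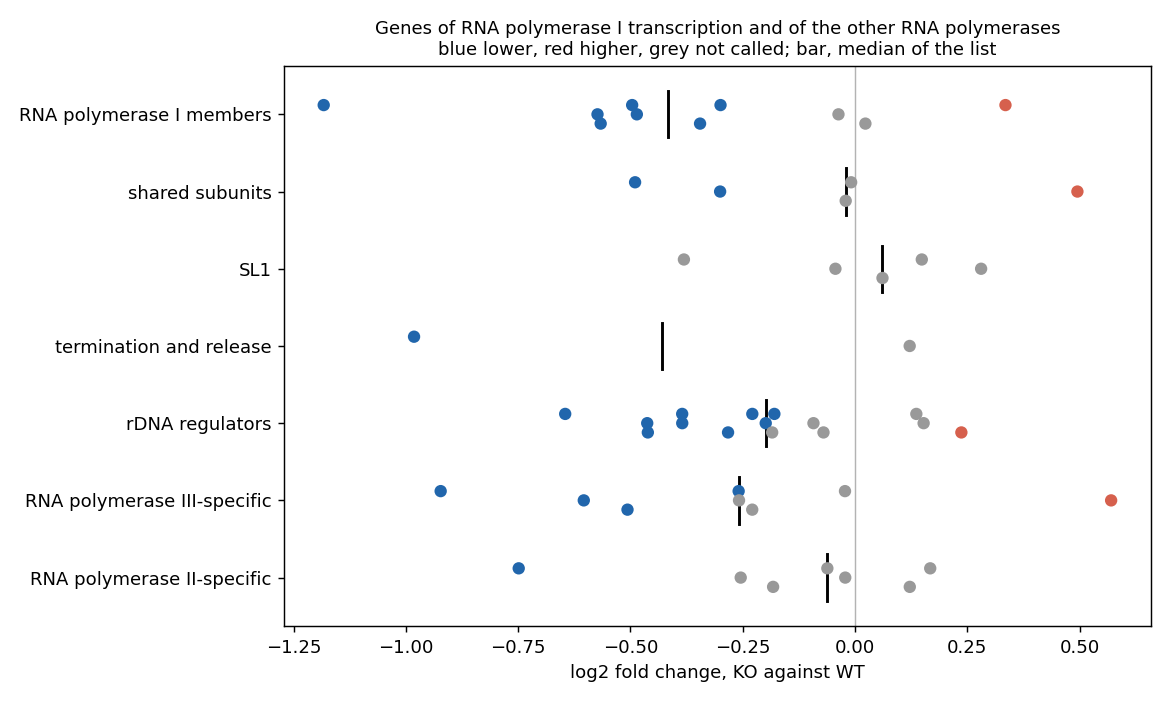
Log2 fold change of KO against WT (horizontal axis) for the tested genes of each list (vertical axis), blue where called lower, red where called higher and grey where not called, with the list's median as a black bar. The RNA polymerase I genes have a median of -0.42, the regulators of ribosomal DNA -0.20, RNA polymerase III -0.26 and RNA polymerase II -0.06.

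In bulk RNA a lower level in every cell and a loss from some of the cells cannot be told apart. The values are relative to all counted RNA in a library, so a change common to all genes would not show in them.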

How the data were processed

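Total RNA of HEK293 cells was sequenced in 4 libraries, 2 WT and 2 KO, grouped by their labels. Raw counts of reads per gene symbol, with no normalization, were deposited by the authors. The build noted by the submitters is hg19, while the study's methods name STAR, RSEM and GRCh38 for RNA-seq, another library kit and 3 samples per genotype, so which pipeline made the counts is not given in the sources used here. The authors' own table of KO against WT (fold changes and p-values) was not used.

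Counts were tested in R 4.3.3 with edgeR 4.0.16 (quasi-likelihood, TMM) on the 13128 genes that reached 1 CPM in 2 or more libraries, and p-values were adjusted by Benjamini-Hochberg (threshold 0.05). DESeq2 1.42.0, limma 3.58.1, other scalings, filters, a replicate block and each library left out were alternatives. Means carry the SD over 2 libraries. Intervals cover counting error and the spread between these libraries only. GENCODE 44 (GRCh38) placed 17318 of 18917 symbols directly and 1170 by synonym. Copies were sought with blastn 2.17.0.

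The 10 genes were set by symbol, and they and the other lists were chosen with earlier results of these data known. One gene was taken out of the other lists, their counts and medians, and is not reported here. The genes named from the pathway lists are those called and the lowest and highest. POLR2E, POLR2K, POLR3C, POLR3GL, LRRC73, YIPF3, XPO5, CDR2, PDXDC1, the BAZ2A with SMARCA5 comparison, POLR2B and POLR3B were added after values were seen.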

Additional observations from a re-analysis of the deposited data

How the results depend on the processing

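Directions of the 8 called RNA polymerase I genes held in every alternative, and calls changed as follows. POLR1B was -0.21 with library size alone, -0.30 with DESeq2 and -0.26 with limma-voom, none called. With library size alone POLR1E turned to 0.05. The cause was not tested. The median of the 10 genes was -0.33 with library size alone, -0.39 with upper quartile, -0.44 with TMM without chromosomes 16 and 22, -0.38 with limma-voom and, in an alternative chosen after seeing the data, -0.34 without RRN3. With library size alone 2081 genes were called higher. DESeq2 called 645 higher, and 3 genes of RNA polymerase III. At an adjusted p of 0.01, 556 were higher and 1038 lower. Library size alone gave medians of 0.06 (shared subunits), 0.15 (SL1), -0.11 (regulators), -0.17 (RNA polymerase III) and 0.02 (RNA polymerase II), with 1 SL1 gene and 2 RNA polymerase II genes called, and a chromosome 16 median of -0.36. That median was -0.41 with upper quartile and -0.46 with TMM without chromosomes 16 and 22. The median of the regulators was -0.16 with limma-voom. Per kilobase of the MANE Select transcript (chosen after seeing the data), WT levels were 37.3 for POLR1C, 108 for POLR1D, 38.3 for POLR1E and 23.6 for ZNRD1.

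Leaving out each library in turn assumes that a lone library varies like those of the other genotype. It gave log2 fold changes of -1.43 to -0.96 for CD3EAP, -0.39 to -0.21 for POLR1B, -0.60 to -0.38 for POLR1C, 0.25 to 0.42 for POLR1D, -0.70 to -0.45 for RRN3, -0.13 to 0.05 for POLR1E (0.05 without KO 2) and -0.13 to 0.16 for ZNRD1 (-0.13 without KO 1 and -0.02 without WT 2). It gave 601 to 1098 genes called higher and 1019 to 1493 lower, both fewest without KO 1, and 0 to 1 higher and 4 to 7 lower of the 10, whose median ran from -0.43 to -0.36. The number called ran from 1 to 3 of the shared subunits (1 without WT 2), 0 to 1 of SL1 (1 without KO 1), 4 to 9 of the regulators (4 without KO 1) and 2 to 5 of RNA polymerase III (2 without KO 2, 3 without WT 1 and without KO 1). Medians ran from -0.06 to 0.08 (SL1), -0.26 to -0.19 (regulators), -0.29 to -0.27 (RNA polymerase III) and -0.44 to -0.41 (chromosome 16), and RRN3 minus the last from -0.27 to -0.01.

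With the replicate number as a block, 3222 genes were called in place of 2748, and no call among the 10 changed (POLR1B -0.30). Over all tested genes, the deviations of same-numbered libraries had a correlation of 0.02. With so few libraries, many genes at low counts and no label on pairing, this cannot decide whether same-numbered libraries shared a culture or batch. Levels per coding length from a protein table were not run. CD3EAP, with 44 to 101 counts, had the widest interval of the 10.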
